A study of Mus musculus with 24 samples.

Results

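The comparison described here sets 6 mouse brain samples labelled Hsp70 against 6 labelled wt, the wild type, 12 of the 24 arrays of the series. Members were taken by array title alone. Probe sets that passed a filter on dim signal were tested, with or without a gene name, and only those with 1 gene symbol were named. All samples were total RNA of whole brain from animals of 4 months, hybridised to 1 Affymetrix array each. The other 12 arrays, 6 labelled aSYN (read here as alpha-synuclein, which the labels do not spell out) and 6 labelled aSYN/Hsp70, give a second comparison with and without the Hsp70 label, read to see whether a difference recurred on separate arrays. They also entered the fit, so all 24 arrays set the SE and p of each difference. The labels do not say how either genotype was made, which promoter or species of Hsp70 was used, the strain, or whether each sample was its own animal. The p-values therefore speak only to the spread among these samples, which may be technical.

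HSP70 proteins are ATP-driven chaperones that bind unfolded stretches of other proteins, with J-domain proteins delivering the substrate and nucleotide exchange factors releasing it. Hspa1a and Hspa1b are the stress-inducible members, while Hspa8 is made in all cells, Hspa5 works in the endoplasmic reticulum and Hspa9 in mitochondria. In the brain, HSP70 is best known for holding aggregation-prone proteins such as alpha-synuclein in soluble form. The striatum, to which many of the genes named below belong, is built mostly of GABA-releasing projection neurons. One class of them expresses the dopamine receptor gene Drd1 with Tac1 and Pdyn, and the other Drd2 with Penk.

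Levels are given as log2 intensity after normalisation between arrays, and differences as the Hsp70 mean minus the wt mean in log2 units with the standard error (SE) of the limma fit. The wt arrays had the profile of brain, with Snap25 of synapses at 16.79, the myelin gene Mbp at 17.06 and the GABA enzyme gene Gad1 at 15.29 log2 units. Hsp70 replicates 3 and 6 stood apart, with limma array weights of 0.251 and 0.332, as did aSYN/Hsp70 replicates 3 and 4 (0.394 and 0.124). Values without the arrays that stood apart leave out all 4. The median spread of a probe set was an SD of 0.308 in Hsp70 and 0.216 in wt, and it was 0.201 in Hsp70 without replicates 3 and 6. Deposited array medians ran from 478 to 525 intensity units in wt and from 481 to 712 in Hsp70 (exact permutation p = 0.0584, adjusted p = 0.175 over 3 array measures). Xist was high in 4 wt and 3 Hsp70 arrays, so both groups held brains of both sexes. On the separate arrays it was high in aSYN replicates 1, 2, 3 and 6 and in aSYN/Hsp70 replicates 1 and 3, a less even split.

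The mouse Hsp70 genes did not separate the groups. Hspa1a, at chromosome 17, 34969359 to 34972156 (GRCm38.p6), ran from 10.25 to 11.23 in wt with a median of 11.09, and from 10.15 to 11.45 in Hsp70 with a median of 10.97. Its difference was -0.08 (exact permutation p = 0.803, n = 6 each). The neighbouring Hspa1b, at 34956429 to 34959238, was read by 3 probe sets that differed by -0.14, 0.19 and 0.26 (exact permutation p = 0.749, 0.773 and 0.509, adjusted p = 0.803 for each of the 4 probe sets). The brightest of them spanned 11.55 to 13.66 in wt and 11.21 to 13.73 in Hsp70, with medians of 12.03 and 11.98, so the groups overlapped almost completely. Without Hsp70 replicate 3 the Hspa1a difference was 0.022. The coding sequences of the pair are nearly identical, so their probe sets may share signal, and a transgene that these mouse probes do not match would be missed. They therefore do not check the label.

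No probe set was called between Hsp70 and wt. Of 27022 probe sets, 0 (0%) passed an adjusted p of 0.05 by limma, and 1305 (4.83%) had an unadjusted p under 0.05, of which 629 (2.33%) were higher and 676 (2.5%) lower in Hsp70. In simulated arrays of this comparison the fit recovered 25% of probe sets changed by 0.5 log2 units and 63% of those changed by 1. The simulation gave every group the same spread, unlike the real arrays (median SD 0.308 in Hsp70 and 0.216 in wt). Recovery also depends on the number of probe sets changed, 100 of each size, so these shares are not the power of the real comparison. Every gene named below as tested had an adjusted p between 0.881 and 0.996 in this comparison, so its difference is a measured value that did not pass the test. Across 12929 genes, each by its brightest probe set, the median difference was 0.0056, with 51.2% above and 48.8% below 0.

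**Figure D1:**
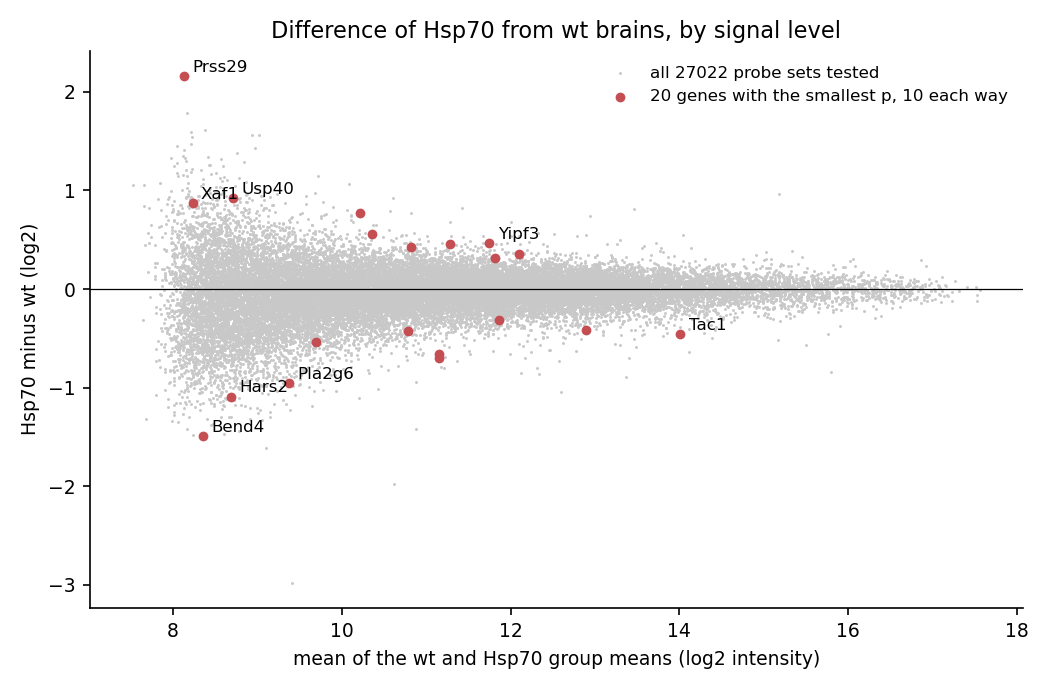
Each point is 1 of 27022 probe sets, with the mean log2 intensity of the wt and Hsp70 groups on the x axis and the log2 difference Hsp70 minus wt on the y axis; red points are the 20 genes with the smallest p-values, 10 each way. The spread widens toward dim probe sets, where Prss29 (2.16) and Bend4 (-1.49) lie, while Tac1 (-0.46) is the brightest of the 20.

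Among the 10 higher genes with the smallest p-values, the Golgi membrane protein gene Yipf3 came first. It ran from 11.16 to 11.81 in wt (median 11.59) and from 11.76 to 12.29 in Hsp70 (median 11.99), with 5 of 6 Hsp70 arrays above every wt array. The difference was 0.47 (SE 0.11, limma adjusted p = 0.881), and a dimmer second probe set differed by -0.40 (SE 0.36). Prss29, a serine protease gene, spanned 5.33 to 8.57 in wt and 8.84 to 9.50 in Hsp70 and differed by 2.16 (SE 0.51). Its groups did not overlap, but the wt SD of 1.45 came from values near the bottom of the range. Snhg10, a small nucleolar RNA host gene, lay between 9.40 and 10.24 in wt and between 10.16 and 11.01 in Hsp70, a difference of 0.77 (SE 0.19). Its other 2 probe sets were also higher, by 0.28 and 0.39.

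The other genes of this group have varied roles. Usp40, a deubiquitinase gene, differed by 0.92 (SE 0.23), but 3 other probe sets of it differed by -0.03, -0.31 and 0.13. Atg2a, which encodes a lipid transfer protein of autophagosome growth, ran from 10.35 to 10.87 in wt and from 10.83 to 11.16 in Hsp70 and differed by 0.43 (SE 0.11). Mrpl36, of the mitochondrial ribosome, lay between 11.41 and 11.79 in wt and between 11.84 and 12.18 in Hsp70, without overlap, and differed by 0.32 (SE 0.08). The remaining differences were 0.36 for Nktr, a cyclophilin-type protein of natural killer cells, 0.87 for Xaf1, an interferon-inducible apoptosis gene, 0.46 for the adhesion receptor gene Celsr3 and 0.56 for the steroid and dolichol enzyme gene Srd5a3. Further probe sets were mixed in sign for Nktr (0.29, -0.14 and -0.17) and Srd5a3 (0.32, -0.07, -0.14 and -0.42), and 1 of Xaf1 was at 0.17. All 10 had 3 or more Hsp70 arrays above the highest wt array. That follows largely from choosing them by p on the same arrays and adds no support.

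On the separate arrays, aSYN/Hsp70 against aSYN, 7 of these 10 genes were also higher, where 61.1% of all probe sets, and 66.3% of the 1305, had the same sign in both comparisons. Only Snhg10 (0.46, SE 0.19) and Celsr3 (0.26, SE 0.12) had an unadjusted limma p under 0.05 there, at 0.0232 and 0.0469, where 19.6% of probe sets did. Yipf3 differed by 0.06 and Prss29 by 0.16, each within its SE.

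Of the 10 lower genes, Bend4, which encodes a BEN domain protein, had the smallest p. It ran from 8.22 to 9.70 in wt (median 9.22) and from 6.53 to 8.37 in Hsp70 (median 7.74), and only Hsp70 replicate 1 reached into the wt range. The difference was -1.49 (SE 0.33, limma adjusted p = 0.881). With aSYN the sign was opposite, at 0.89 (SE 0.33), and the interaction did not pass (limma adjusted p = 0.0663). Over all probe sets, 0 interactions passed and 2198 (8.13%) had an unadjusted limma p under 0.05. A brighter probe set of Bend4 differed by -0.42 (SE 0.38).

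Tac1, the precursor gene of substance P and neurokinin A, was the brightest of the 20. Its wt values were 14.60, 14.08, 14.08, 13.92, 14.33 and 14.41 and its Hsp70 values 13.92, 13.63, 13.62, 13.77, 13.75 and 13.97. Only Hsp70 replicate 6 exceeded the lowest wt array, and replicate 1 equalled it to 2 decimals. The difference was -0.46 (SE 0.12, limma adjusted p = 0.881), and on the separate arrays it was -0.47 (SE 0.12, adjusted p = 0.0577).

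Rorb, a nuclear receptor gene of cortical and sensory neurons, spanned 10.94 to 11.87 in wt and 10.21 to 11.18 in Hsp70 and differed by -0.66 (SE 0.18). With aSYN it was lower by a like amount, -0.82 (SE 0.18), and passed there (limma adjusted p = 0.0307), where 194 probe sets (0.718%) were called. Its other 2 probe sets differed by -0.19 (SE 0.27) and -0.45 (SE 0.44), and with aSYN by -0.05 (SE 0.27) and -0.56 (SE 0.44). Gnal, which encodes the olfactory and striatal G protein alpha subunit that couples dopamine D1 receptors to adenylyl cyclase, differed by -0.42 (SE 0.10) in this probe set. Its brighter probe set differed by -0.15 (SE 0.13) and a dim one by 0.55 (SE 0.24), so the 3 did not move together. Hars2, for mitochondrial histidyl-tRNA synthetase, was below the wt range in 6 of 6 Hsp70 arrays (wt 9.13 to 9.51, Hsp70 7.41 to 8.83). It differed by -1.09 (SE 0.28) and by -0.84 (SE 0.28) with aSYN. Its brighter probe set differed by -0.19 (SE 0.12), and by 0.01 (SE 0.12) with aSYN.

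For Slk, a kinase gene, all 4 probe sets were lower, by -0.43, -0.28, -0.27 and -0.35. On the separate arrays the first of them was 0.20 higher. Etfrf1, a mitochondrial electron transfer flavoprotein regulator, lay between 11.86 and 12.27 in wt and between 11.63 and 11.80 in Hsp70, without overlap, and differed by -0.31 (SE 0.09). Prxl2a, of the peroxiredoxin-like family, did not overlap either (-0.70, SE 0.19), and its brighter probe set differed by -0.28 (SE 0.15). Otud7a (-0.54), a deubiquitinase gene, and Pla2g6 (-0.95), a phospholipase gene of familial dystonia-parkinsonism, had brighter probe sets at -0.12 and -0.05, and a dimmer one of Pla2g6 was at 0.44. By the probe set with the smallest p, 7 of the 10 lower genes were lower with aSYN as well. Tac1, Rorb, Gnal and Hars2 had an unadjusted limma p under 0.05 there. Of the 1305 probe sets with such a p between Hsp70 and wt, 175 (13.4%) had one with the same sign on the separate arrays.

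**Figure D2:**
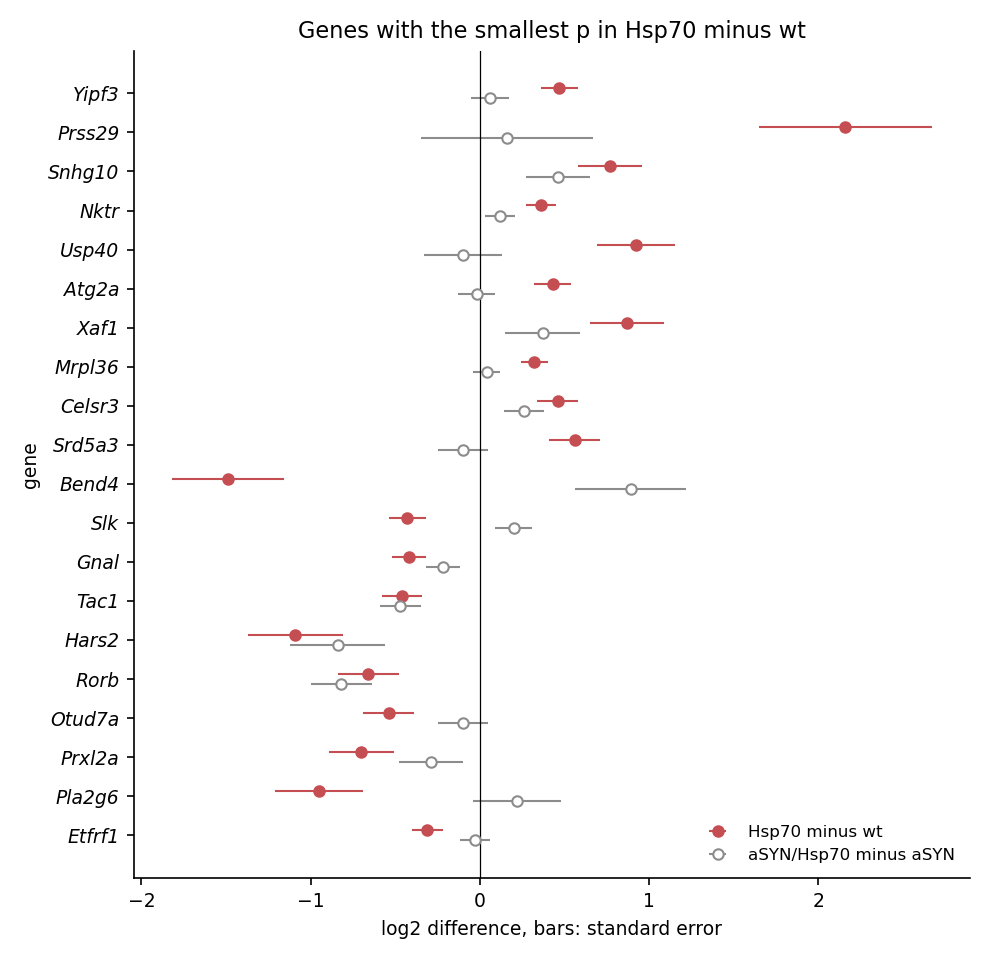
The log2 differences of the 20 genes with the smallest p-values, filled for Hsp70 minus wt and open for aSYN/Hsp70 minus aSYN on separate arrays, with bars of 1 SE. In the probe sets drawn, Tac1, Rorb and Hars2 lie at similar values in both, whereas Bend4 changes from -1.49 to 0.89. The brighter Hars2 probe set, not drawn, was at 0.01 in aSYN/Hsp70 minus aSYN.

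The 6 Hsp70 values lay wholly above the 6 wt values for 33 probe sets (0.122%) and wholly below them for 40 (0.148%). The widest gaps above were in Prss29, Tmc8 of a transmembrane channel-like family (0.94, SE 0.41), 1700052K11Rik (0.38, SE 0.12), the metalloprotease gene Adamts8 (1.61, SE 0.57) and the ribosome biogenesis gene Wdr75 (0.57, SE 0.21). Below, they were in Frmd4b (-1.19, SE 0.55), the Bardet-Biedl chaperonin gene Bbs10 (-1.01, SE 0.39), Hars2, desmoplakin (Dsp, -0.66, SE 0.22) and the zinc finger gene Zfp865 (-0.52, SE 0.26). With aSYN, 4 of 5 in each direction kept their sign, and Bbs10 (-0.83) and Dsp (-0.48), beside Hars2, had an unadjusted limma p under 0.05.

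Genes of striatal projection neurons were mostly lower in Hsp70 than in wt. Of 42 genes in 4 lists, 39 had a named probe set and 36 passed the filter on dim probe sets, and 32 of the 36 were lower in Hsp70, where 48.8% of all genes were. Their median was -0.13 log2 units against 0.0056 over all genes. An unadjusted limma p under 0.05 was reached by 5 of 36, all lower (Tac1, Drd1, Rarb, Pde10a and Ebf1), where 1.96% of all genes were lower at that p, and 0 passed adjusted. Over their 78 probe sets, 64 were lower. The lists were written with earlier results of these data known, so these counts describe the arrays and are not a test. In bulk tissue, fewer striatal cells or less striatum in the sample and less RNA of these genes per cell cannot be told apart.

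The mean of the 36 genes relative to wt was -0.15, -0.12, -0.34, -0.22, -0.12 and -0.15 in Hsp70 replicates 1 to 6, and 0.16, -0.12, 0.02, -0.05, -0.02 and 0.01 in the wt replicates. The Hsp70 arrays all lay below the wt arrays, though to 2 decimals wt replicate 2 equalled Hsp70 replicates 2 and 5. Wt replicate 1 was the highest, and it also had the highest cerebellar score (1.94 against at most 0.09 in the other wt arrays). Without it the striatal median was -0.115 with 28 of 36 lower, and without the arrays that stood apart -0.147 with 31 of 36. The part of regional sampling in these values was not tested. On the separate arrays the median was -0.15 and 28 of 36 were lower with Hsp70 (52.2% of all genes), 27 of them in both comparisons. The mean of the 36 genes was -0.35, -0.08, -0.23, -0.31, -0.14 and -0.17 in aSYN/Hsp70 replicates 1 to 6, and between -0.09 and 0.03 in aSYN. Replicates 3 and 4 of aSYN/Hsp70, which stood apart, were kept in, and this median was not computed without them. Over their 78 probe sets 53 were lower there, and the 2 that were called, of Cnr1 and Pde10a, were both higher.

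**Figure D3:**
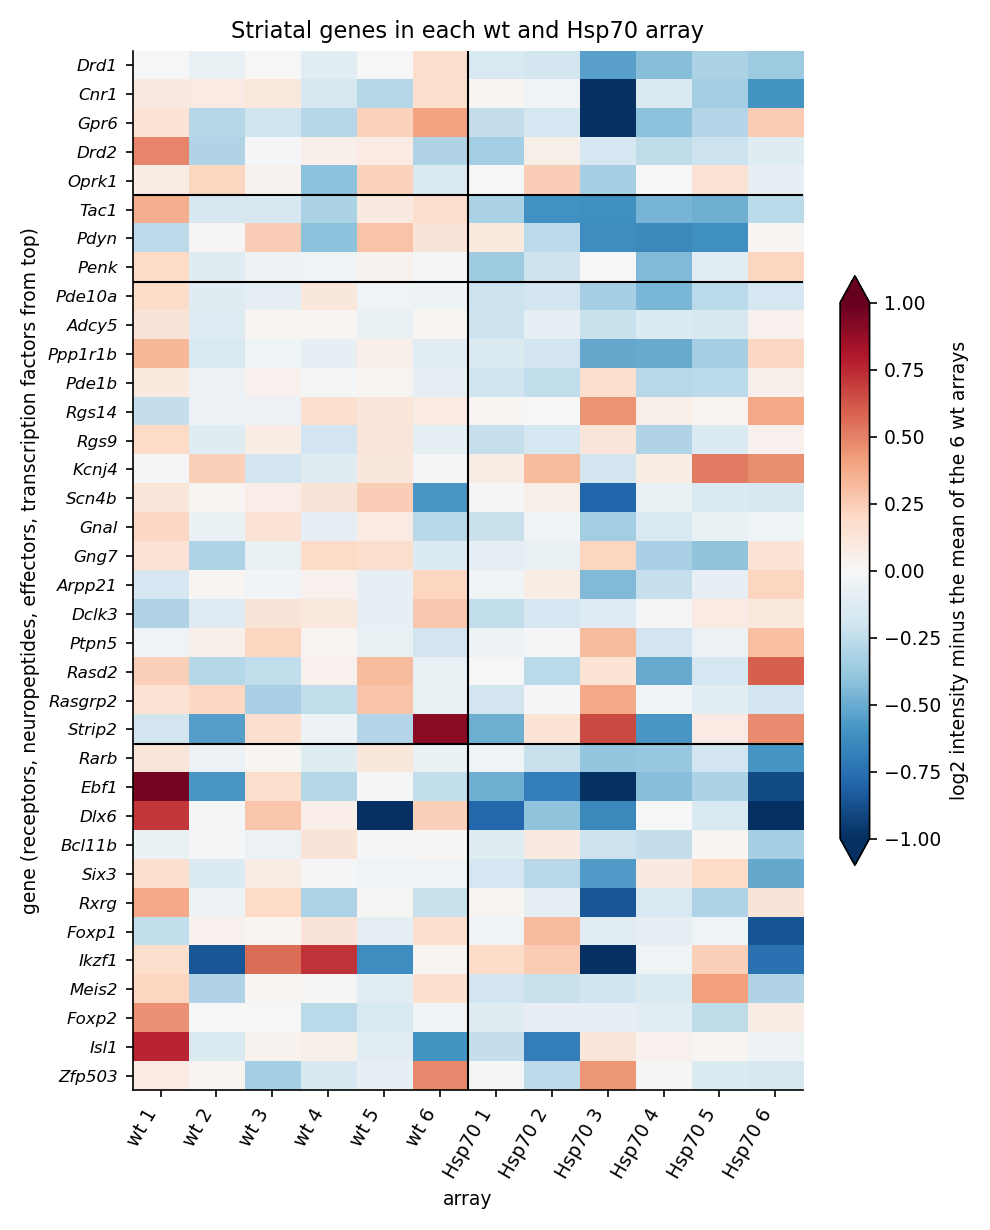
Rows are the 36 striatal genes by role and columns the 12 arrays, coloured by log2 intensity minus the mean of the 6 wt arrays (scale cut at 1). Blue prevails in the Hsp70 columns for receptors, neuropeptides and transcription factors, with exceptions such as Kcnj4 (0.21) and Rgs14 (0.16), and Hsp70 replicates 3 and 6 hold the darkest cells.

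Among the receptors, Drd1, for the dopamine D1 receptor at chromosome 13, 54051183 to 54055658, separated the groups fully. Its wt values were 12.63, 12.56, 12.64, 12.53, 12.64 and 12.81, and its Hsp70 values 12.48, 12.45, 12.09, 12.21, 12.32 and 12.27. The difference was -0.34 (SE 0.10, limma adjusted p = 0.881). A second probe set differed by -0.30 (SE 0.14). With aSYN the brighter one was -0.28 (SE 0.10), and without the arrays that stood apart the Hsp70 minus wt value was -0.275.

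Cnr1, for the cannabinoid receptor CB1 that striatal neurons carry on their terminals, differed by -0.37 (SE 0.18), with Hsp70 replicates 3 (12.60) and 6 (13.12) the lowest, and by -0.126 without the arrays that stood apart. With aSYN this probe set was -0.43 (SE 0.18). A dimmer probe set of Cnr1 differed by -0.21 (SE 0.15) between Hsp70 and wt but by 0.97 (SE 0.15, limma adjusted p = 0.00606) with aSYN, so the pair went opposite ways there, and its interaction did not pass (limma adjusted p = 0.0516). Gpr6, a receptor gene of the Drd2 class of neurons, differed by -0.38 (SE 0.24) and by -0.66 (SE 0.24) with aSYN. Its groups overlapped (wt 11.24 to 11.93, Hsp70 10.09 to 11.78). Drd2 itself was -0.17 (SE 0.12) and the kappa opioid receptor gene Oprk1 0.00 (SE 0.13). Drd3, Oprm1 and Chrm4 were too dim to be tested.

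Of the 3 neuropeptide precursors, Tac1 and the dynorphin precursor Pdyn mark the Drd1 class and the enkephalin precursor Penk the Drd2 class. Pdyn spanned 10.11 to 10.81 in wt and 9.88 to 10.62 in Hsp70 and differed by -0.34 (SE 0.19), and by -0.44 (SE 0.19) with aSYN. Penk spanned 15.17 to 15.49 in wt and 14.85 to 15.51 in Hsp70 and differed by -0.15 (SE 0.11), and by 0.01 with aSYN. Whether the Drd1 and Drd2 classes differed from each other was not tested.

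The signalling effectors were less one-sided, with 12 of 16 lower and a median of -0.09. Pde10a, for the phosphodiesterase that degrades cyclic AMP and cyclic GMP in these neurons, did not overlap between groups. Its wt values were 13.85, 13.54, 13.57, 13.78, 13.63 and 13.61 and its Hsp70 values 13.45, 13.47, 13.33, 13.21, 13.39 and 13.49, a difference of -0.27 (SE 0.09, limma adjusted p = 0.881). All 5 of its probe sets were lower, by -0.40, -0.20, -0.03, -0.43 and -0.27. With aSYN the same probe set was 0.33 higher (SE 0.09), and the interaction did not pass (limma adjusted p = 0.107). A dimmer one was 0.53 higher there (SE 0.13) and passed (limma adjusted p = 0.0465), while the other 3 were at -0.03, -0.14 and -0.85.

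Ppp1r1b, for the phosphatase inhibitor DARPP-32, spanned 13.80 to 14.28 in wt and 13.44 to 14.16 in Hsp70 and differed by -0.24 (SE 0.13). The adenylyl cyclase gene Adcy5 differed by -0.13 (SE 0.07), the phosphodiesterase gene Pde1b by -0.13 (SE 0.08) and the G protein regulator gene Rgs9 by -0.11 (SE 0.09). A dimmer probe set of Adcy5 differed by 0.15 (SE 0.21). With aSYN it was at 0.58 (SE 0.21) and the brighter one at -0.17 (SE 0.07). The 4 higher members were the potassium channel gene Kcnj4 (0.21, SE 0.17), Rgs14 (0.16, SE 0.11), the phosphatase gene Ptpn5 (0.05, SE 0.12) and Strip2 (0.05, SE 0.21). Without the arrays that stood apart, Ptpn5 was -0.082 and Strip2 -0.22 by these probe sets. Dimmer probe sets of Ptpn5 differed by -0.08 (SE 0.14) and 0.84 (SE 0.42). In the latter all 6 Hsp70 arrays lay above every wt array, by 0.01. Its wt replicate 6 was at 7.32 and the other wt arrays between 9.73 and 10.03.

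All 12 transcription factors of the striatal list were lower, with a median of -0.17, and 12 of 12 were lower with aSYN (median -0.35). Rarb, a retinoic acid receptor gene, spanned 11.94 to 12.18 in wt and 11.47 to 12.02 in Hsp70, where 5 of 6 arrays lay below every wt array. It differed by -0.30 (SE 0.09) and by -0.04 (SE 0.09) with aSYN. Ebf1, of Drd1-class neurons, spanned 9.92 to 11.46 and 8.56 to 10.19 and differed by -0.80 (SE 0.29), with Hsp70 replicate 3 the lowest, and 3 further probe sets at -0.55, 0.07 and -0.09. Bcl11b, for the CTIP2 protein of projection neurons, differed by -0.13 (SE 0.08), Foxp1 by -0.14 (SE 0.14), Foxp2 by -0.10 (SE 0.13) and Six3 by -0.21 (SE 0.14). Dimmer probe sets gave other values, such as -0.46 (SE 0.15) for Foxp2 and 0.13 (SE 0.11) for Bcl11b. Isl1 was at -0.13 (SE 0.29) by its brightest probe set and -1.07 (SE 0.45) by another. Over the 33 probe sets of this list, 30 were lower. Foxp1 was 0.041 and Ikzf1 0.161 without the arrays that stood apart, so the one-sided count of this list rests partly on them.

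**Figure D4:**
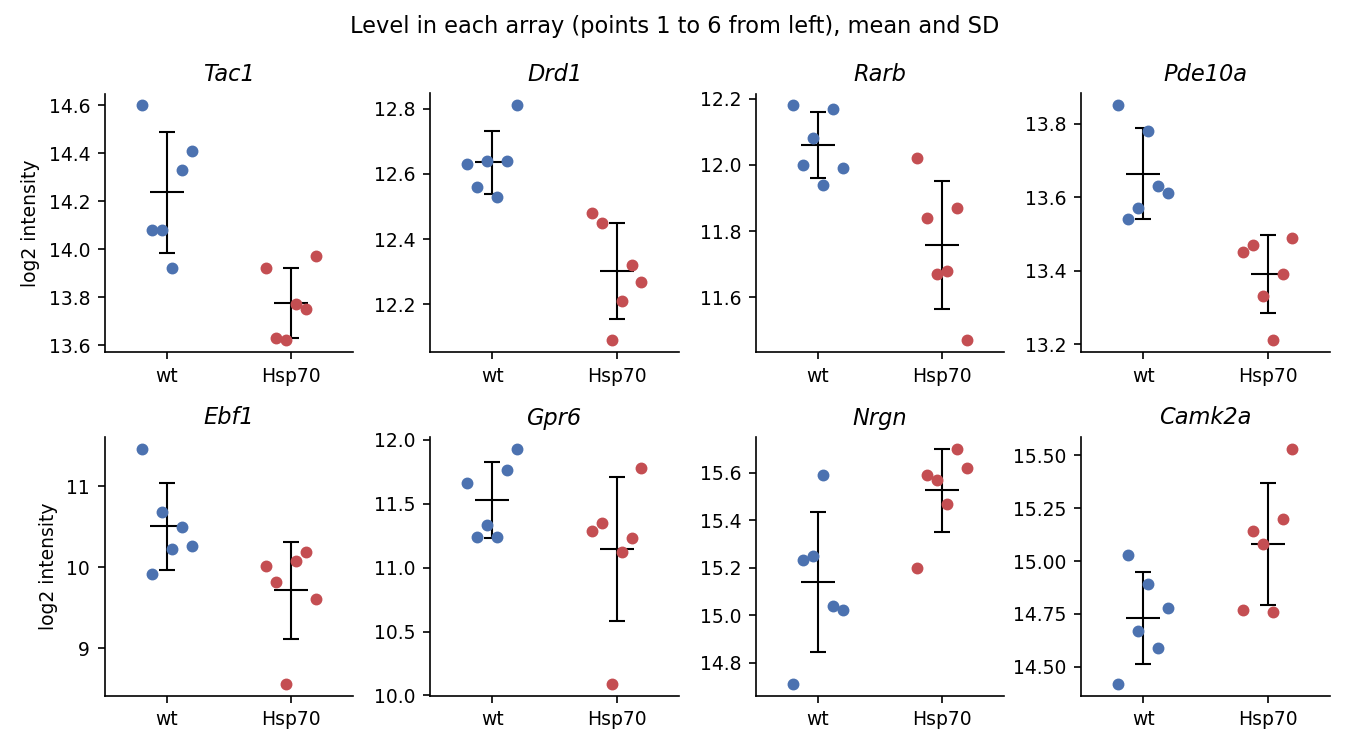
Log2 intensity of 8 genes in each array (points, replicates 1 to 6 from left), with group mean and SD; each panel has its own y axis, which does not start at 0. Drd1 and Pde10a do not overlap between groups, Tac1, Rarb, Ebf1 and Gpr6 do, and Nrgn and Camk2a are higher on average in Hsp70.

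The promoters of 4 of these genes are shown. Cyclic AMP signalling is known to act through a palindromic cyclic AMP response element (TGACGTCA, both strands) or its shorter core (TGACG or CGTCA). The palindrome also contains the core. By their brightest probe sets, Tac1, Rarb and Drd1 had the smallest limma p-values of the striatal genes. Gpr6 alone of the striatal promoters read held the full element. Whether such signalling had a part in the differences was not tested. Windows run from 250 bases before to 50 after the RefSeq start (GRCm38.p6), 5′ to 3′ on the strand of the gene, with matches in capitals: Tac1 at chr6:7554811-7555110 (plus strand), Gpr6 at chr10:41072241-41072540 (minus), Drd1 at chr13:54055609-54055908 (minus) and Rarb at chr14:16575427-16575726 (minus).
Tac1: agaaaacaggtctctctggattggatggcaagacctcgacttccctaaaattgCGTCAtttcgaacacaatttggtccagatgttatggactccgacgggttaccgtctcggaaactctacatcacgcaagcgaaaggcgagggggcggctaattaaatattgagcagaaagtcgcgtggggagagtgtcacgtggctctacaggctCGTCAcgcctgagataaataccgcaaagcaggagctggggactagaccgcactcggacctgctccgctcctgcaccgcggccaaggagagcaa
Gpr6: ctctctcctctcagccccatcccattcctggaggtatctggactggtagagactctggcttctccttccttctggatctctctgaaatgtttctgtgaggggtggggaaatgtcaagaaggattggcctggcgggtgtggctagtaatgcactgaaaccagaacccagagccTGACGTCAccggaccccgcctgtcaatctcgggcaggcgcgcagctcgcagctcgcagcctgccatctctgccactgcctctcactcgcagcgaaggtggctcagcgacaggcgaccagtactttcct
Drd1: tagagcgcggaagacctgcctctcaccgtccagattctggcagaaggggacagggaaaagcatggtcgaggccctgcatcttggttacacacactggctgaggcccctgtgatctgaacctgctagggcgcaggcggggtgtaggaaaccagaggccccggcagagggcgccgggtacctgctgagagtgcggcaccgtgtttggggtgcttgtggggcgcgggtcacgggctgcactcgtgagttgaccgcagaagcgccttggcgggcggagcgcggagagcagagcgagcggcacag
Rarb: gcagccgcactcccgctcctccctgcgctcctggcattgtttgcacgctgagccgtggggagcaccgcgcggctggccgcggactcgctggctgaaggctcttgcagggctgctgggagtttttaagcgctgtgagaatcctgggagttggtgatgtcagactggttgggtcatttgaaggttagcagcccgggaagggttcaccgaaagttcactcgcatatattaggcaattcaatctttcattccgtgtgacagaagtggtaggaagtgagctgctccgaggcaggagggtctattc

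The Tac1 window held 2 cores and the Gpr6 window the full palindrome, while these Drd1 and Rarb windows held neither. Of the 36 striatal genes, 28 had a window, 1 with the full element (3.57%) and 9 with a core (32.1%). Over all 27025 genes with a window, 2.03% held the full element and 23% a core. Over all 32544 windows the shares were 1.8% and 20.9%. A gene counted if any of its windows held a match, and several striatal genes, such as Arpp21, had more than 1 window. The share per striatal window was not computed, and an excess was not tested. A match describes letters in the window and is not a measured binding site.

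Among other regions and cell types, several lists had medians further from 0 than the striatal -0.13, over fewer genes. Hypothalamic genes were lower for 10 of 12 with a median of -0.30. The neuropeptide gene Nts spanned 11.66 to 12.73 in wt and 11.59 to 12.09 in Hsp70 and differed by -0.40 (SE 0.18, limma adjusted p = 0.881), and by -0.52 (SE 0.18) with aSYN. Pituitary genes were lower for 4 of 5, with a median of -0.82, and 1 of the 5, Pomc, is also on the hypothalamic list. Wt replicate 5 held growth hormone (Gh) at 15.80 and prolactin (Prl) at 16.40, against SDs of 3.00 and 4.25 over the wt arrays. Without wt replicate 5 the pituitary median was 0.022 and the hypothalamic one -0.218. How far pituitary RNA entered the hypothalamic values was not tested.

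Cortical and hippocampal excitatory neuron genes were evenly divided (8 higher, 6 lower, median 0.05), and the 2 smallest p-values were those of members of the postsynaptic calcium-calmodulin system. Nrgn, for neurogranin, spanned 14.71 to 15.59 in wt (median 15.13) and 15.20 to 15.70 in Hsp70 (median 15.58), with 3 Hsp70 arrays above every wt array, and differed by 0.39 (SE 0.13). Camk2a, for the alpha subunit of calmodulin kinase II, spanned 14.42 to 15.03 and 14.76 to 15.53 and differed by 0.35 (SE 0.14). On the separate arrays each was 0.04, within its SE. The GABA transporter gene of vesicles, Slc32a1, differed by -0.29 (SE 0.12) and by -0.26 (SE 0.12) with aSYN, while the interneuron list had a median of 0.

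Dopamine neuron genes were lower for 6 of 8 (median -0.17). The tyrosine hydroxylase gene Th differed by 0.22 and the dopamine transporter gene Slc6a3 by -0.21. The vesicular monoamine transporter gene Slc18a2 spanned 9.82 to 10.61 in wt and 9.34 to 10.10 in Hsp70, with 4 Hsp70 arrays below every wt array, and differed by -0.41 (SE 0.18). With aSYN it was -0.85 (SE 0.18) and passed (limma adjusted p = 0.0281). Acetylcholine, serotonin and noradrenaline neuron genes were higher for 3 of 4 (median 0.47, and -0.021 without the filter on dim probe sets). Among them Slc6a2, the noradrenaline transporter gene, was dim (medians of 8.23 in wt and 8.9 in Hsp70) and differed by 0.75 (SE 0.24). Thalamic genes were lower for 9 of 12 (median -0.14), cerebellar genes for 6 of 7 (median -0.15, and 0.138 without wt replicate 1) and olfactory bulb genes for 5 of 8 (median -0.07).

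Glial, vascular and border lists lay within 0.18 log2 units of 0, and none of their members but one reached an unadjusted p of 0.05. Myelin genes were lower for 10 of 14 (median -0.12), astrocyte genes for 10 of 12 (-0.05) and choroid plexus and ependymal genes for 9 of 12 (-0.18), whereas microglial genes were higher for 10 of 13 (0.05) and meningeal genes for 9 of 13 (0.06). Slco1c1, the thyroxine transporter gene of brain endothelium, differed by -0.22 (SE 0.10) and by -0.31 (SE 0.10) with aSYN. Genes of immature and dividing cells were higher for 6 of 10 (median 0.03). The 2 with an unadjusted limma p under 0.05 were lower, of which Dlx2 differed by -0.45 (SE 0.20). Top2a differed by -1.15 (SE 0.52), with Hsp70 replicates 3 and 6 at 5.79 and 5.53 and the other 4 between 8.09 and 8.61, against 8.19 to 9.28 in wt.

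**Figure D5:**
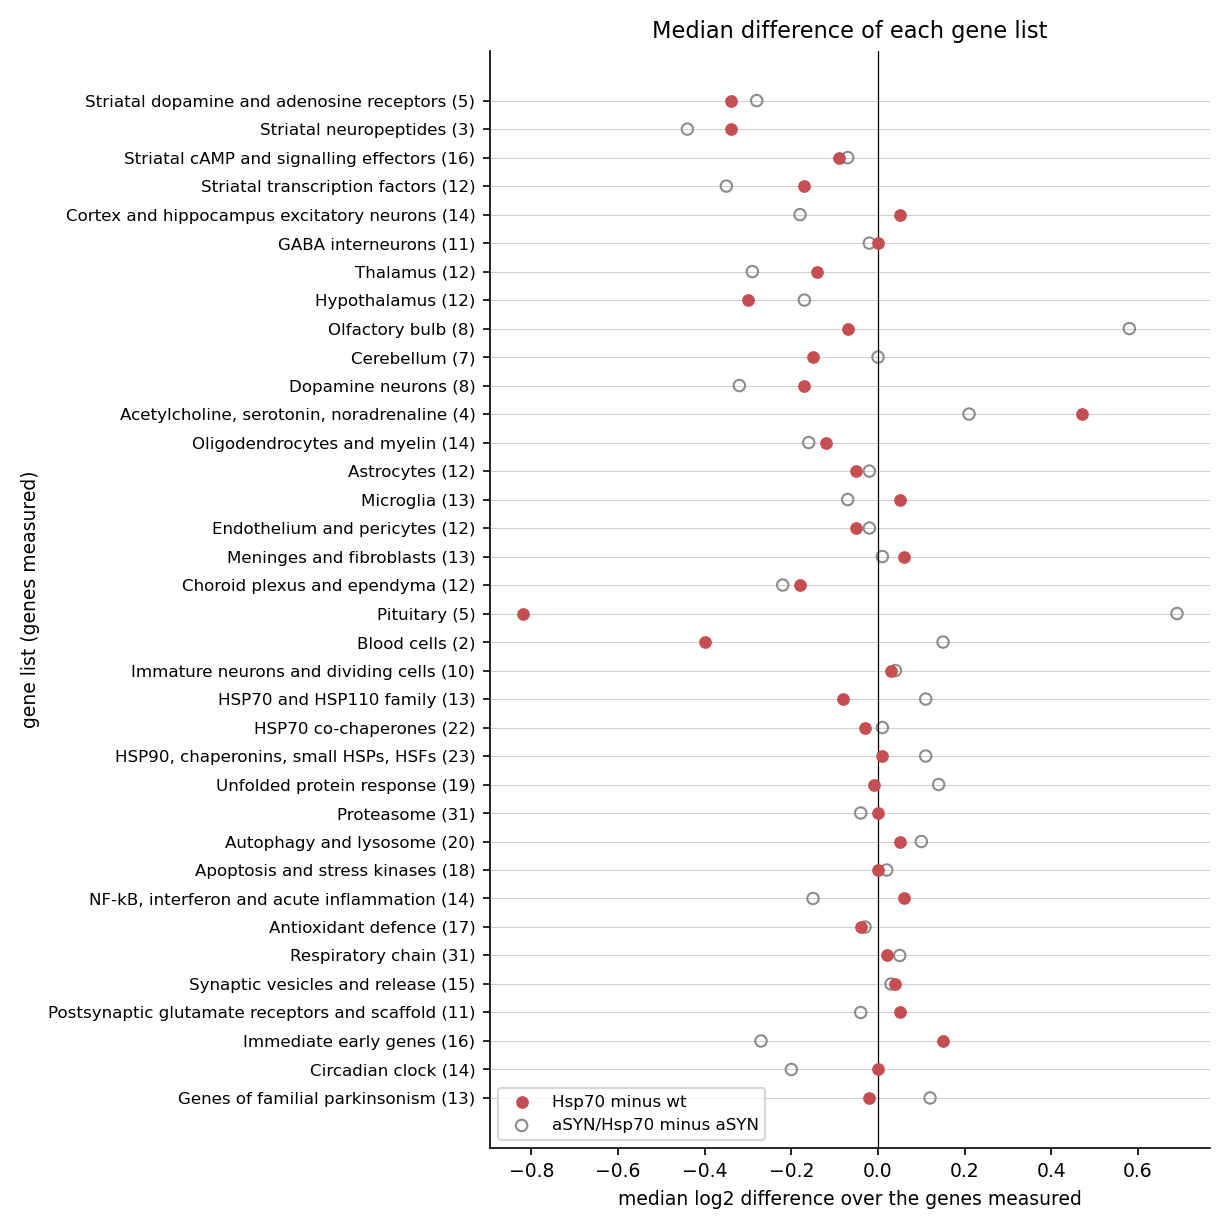
Median log2 difference of each of 36 gene lists (number of genes measured in parentheses), filled for Hsp70 minus wt and open for aSYN/Hsp70 minus aSYN on separate arrays. The 4 striatal lists lie left of 0 in both, the chaperone and proteasome lists lie within 0.15 of 0 in both, and the pituitary list moves from -0.82 to 0.69.

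The chaperone system showed no common direction. The HSP70 and HSP110 family had 6 of 13 genes higher and 7 lower (median -0.08, from -0.18 to 0.19), and 0 of 13 had an unadjusted limma p under 0.05, where 4.73% of all genes did. The constitutive Hspa8 was not among the 3 smallest p-values of the list. These were Hspa14 of the ribosome-bound chaperone complex (-0.16, SE 0.09), mitochondrial Hspa9 (-0.12, SE 0.08) and Hspa4l of the HSP110 class (-0.18, SE 0.11). Hspa9 was tight in both groups, from 13.80 to 13.95 in wt and from 13.65 to 13.80 in Hsp70, and all 6 Hsp70 arrays lay at or below the lowest wt array. With aSYN it was -0.15 (SE 0.08).

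Co-chaperones were lower for 15 of 22 with a median of -0.03. The smallest p was that of the endoplasmic reticulum J-domain gene Dnajb9, which spanned 13.45 to 13.90 in wt and 12.79 to 13.53 in Hsp70 and differed by -0.30 (SE 0.15), and by -0.34 (SE 0.15) with aSYN. St13, for the HSP70-interacting protein Hip, differed by -0.17 (SE 0.09) and the neuronal J-domain gene Dnajb2 by 0.19 (SE 0.10). HSP90, chaperonin, small heat shock and heat shock factor genes were higher for 12 of 23 (median 0.01). Among them were the small heat shock genes Hspb8 (0.36, SE 0.19) and Hspb2 (-0.40, SE 0.21) and the chaperonin subunit Cct4 (-0.11, SE 0.06).

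Further quality control genes behaved alike. Unfolded protein response genes were higher for 8 of 19 (median -0.01), with the transcription factor Atf4 at 0.24 (SE 0.10) and the lectin chaperone calnexin (Canx) at -0.28 (SE 0.13), both with Hsp70 replicates 3 and 6 at the extreme. Proteasome genes were higher for 18 of 31 (median 0), with the smallest p in the base subunit gene Psmc4 (0.18, SE 0.07). Autophagy and lysosome genes were higher for 14 of 20 (median 0.05), with the lysosomal ATPase gene Atp13a2, mutated in a familial parkinsonism, at 0.26 (SE 0.11). Its wt values lay between 12.82 and 13.12 and its Hsp70 values between 12.98 and 13.67, of which replicates 3 and 6 were the highest. Antioxidant genes were lower for 11 of 17 (median -0.04), apoptosis and stress kinase genes for 9 of 18 (median 0), and inflammation genes higher for 10 of 14 (median 0.06), with 0 members of these 3 lists at an unadjusted p under 0.05.

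The respiratory chain held 5 of 31 genes with an unadjusted limma p under 0.05, 4 higher and 1 lower, around a median of 0.02, where 2.77% of all genes were higher and 1.96% lower at that p. Sdha, the flavoprotein subunit of complex II, was the lower one and did not overlap between groups (wt 15.44 to 15.60, Hsp70 15.21 to 15.37). It differed by -0.22 (SE 0.08), and by -0.10 with aSYN. Cyc1 of complex III spanned 15.00 to 15.36 in wt and 15.30 to 15.63 in Hsp70 and differed by 0.23 (SE 0.08), Ndufs3 of complex I by 0.23 (SE 0.09) and Uqcrfs1 of complex III by 0.16 (SE 0.08). Synaptic vesicle genes were higher for 12 of 15 with a median of 0.04, and the smallest p was that of the fusion ATPase gene Nsf (0.16, SE 0.07). Immediate early genes were higher for 12 of 16 (median 0.15, range -0.47 to 0.56) with 0 at that p, and their median on the separate arrays was -0.27. Clock genes were higher for 7 of 14 (median 0), and the repressor gene Bhlhe41 differed by -1.01 (SE 0.39) with Hsp70 replicates 3 and 6 at 7.46 and 6.23.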

How the data were processed

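The authors deposited 1 linear intensity per probe set and array for 45101 Affymetrix probe sets; the summarising program is not stated in the labels. Each array had been scaled to a mean of 2500 without the lowest and highest 2%. Intensities were taken as log2(intensity + 16), which understates differences of dim probe sets, and quantile normalised. The 64 control and 18015 dimmest probe sets (40%) were left out, leaving 27022. Of all probe sets, 34958 carried 1 gene symbol, 932 several and 9211 none, and only the first were named, with coordinates from a RefSeq gene table of GRCm38.p6.

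All 24 arrays entered 1 fit with 4 group means (limma 3.58.1, R 4.3.3, 20 residual degrees of freedom), with Benjamini-Hochberg adjustment over 27022 probe sets and calls at 0.05. Interaction means the difference of the 2 Hsp70 contrasts. Single values were compared by exact two-sided permutation over 924 splits, which cannot give a p below 0.00216. Genes in lists were read by their brightest probe set, and 45 of 556 list genes had no named one. Array weights are limma's. The fit was tested on simulated data.

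Named were the 10 genes with the smallest p each way, the 5 with the widest gap between separated groups each way, Hspa1a and Hspa1b, all striatal members and up to 4 members per other list by p. The genes, lists and rules were chosen with earlier results of these data known. The number of arrays limits the precision. Figures were drawn with matplotlib 3.10.9.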

Additional observations from a re-analysis of the deposited data

Results flagged for a closer look

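In 28 of 298 groups of 6 arrays tested (9.4%), 1 array stood far from the other 5 by Dixon's test, which chance does in about 1 in 20 groups. Hsp70 replicates 3 and 6 accounted for 6 each, wt replicates 1 and 5 for 3 each.

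Hsp70 replicate 3 was lowest for Prxl2a at 9.81 (nearest array 10.79), Scn4b, a sodium channel subunit gene of striatal neurons, at 13.36 (13.99), Ebf1 at 8.56 (9.61) and Dnajb9 at 12.79 (13.37). It was highest for Rasgrp2 at 11.87 (11.47) and lowest in the mean of the striatal receptor list at -0.72 (-0.25). Hsp70 replicate 6 was lowest for Dlx6 at 6.39 (8.1), Foxp1 at 12.88 (13.63), the astrocyte water channel gene Aqp4 at 12.61 (13.62) and the dopamine neuron list at -0.26 (-0.13), and highest for Srd5a3 at 11.23 (10.59) and Wdr75 at 10.1 (9.29).

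Among other Hsp70 arrays, replicate 5 was highest for Meis2 at 13.96 (13.41) and the olfactory bulb list at 1.02 (0.03). Replicate 1 was lowest for Slc6a2 at 8.17 (8.69) and highest for the pituitary list at 0.05 (-0.65).

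Wt replicate 1 held the cerebellar granule and Purkinje genes Zic1 at 15.02 (13.6) and Car8 at 13.69 (11.23), and the cerebellar list at 1.94 (0.09). Wt replicate 5 was highest for Hars2 at 9.51 (9.27) and Hspb2 at 10.36 (9.22) and lowest for Dlx6 at 7.61 (8.86). Wt replicate 4 was highest for an Hspa1b probe set at 13.66 (12.11) and the HSP70 and HSP110 list at 0.22 (-0.01). Wt replicate 3 was lowest for Hspa1a at 10.25 (10.89) and Bhlhe41 at 8.31 (9.05), and wt replicate 6 for Scn4b at 13.57 (14.17) and Atp13a2 at 12.82 (13.01).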

How the results depend on the processing

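The count of probe sets called between Hsp70 and wt was 0 in every alternative but one: array weights with the sex score as covariate gave 1, 9430015G10Rik. Probe sets at an unadjusted p under 0.05 numbered 2043 without the filter on dim probe sets, 2165 without Hsp70 replicate 1 and 751 without Hsp70 replicate 3. The striatal median lay between -0.168 and -0.115 over 24 alternatives, with 28 to 34 members below 0. Median values of 2 lists moved by more than the spread of their arrays: the acetylcholine, serotonin and noradrenaline list was -0.021 without the filter, and the autophagy and lysosome list -0.006 with probe sets averaged per gene.

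Probe sets wholly higher in Hsp70 numbered 51 without the filter, 110 once the arrays that stood apart were dropped and 51 to 119 with 1 array left out. Wholly lower ones numbered 136 once they were dropped and 56 to 146 with 1 array left out. Fewer arrays make separation easier by construction.

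Interaction calls numbered 5 without quantile normalisation, 8 with a larger offset, 81 with array weights, 47 with weights and sex score, 24 with a trended and robust variance, 5 once the outlying arrays were dropped and 0 to 30 with 1 array left out. Calls between aSYN/Hsp70 and aSYN, 194 in the main fit, numbered 43 without the filter, 324 with array weights, 89 with the sex score, 369 with the trended variance, 102 without the arrays that stood apart, 7 with only the 12 arrays compared and 49 to 814 with 1 array left out. The cause was not tested.

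Replicate numbers do not pair the samples (correlations of -0.0575 to 0.113 between same-numbered arrays, and 1 of 6 best with its own number). With the number as a replicate block, Hsp70 minus wt kept 0 calls and aSYN/Hsp70 minus aSYN had 70.

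Signs turned for some named genes, none of which had passed the test. Without quantile normalisation Oprk1 was 0.013 and Zfp503 0.016. With array weights Oprk1 was 0.035, Ptpn5 -0.077, Strip2 -0.084 and Ikzf1 0.091, and with the sex score added 0.049, -0.069, -0.085 and 0.043, with an Hspa1b probe set at -0.03. Without the arrays that stood apart Oprk1 was 0.1, Ptpn5 -0.082, Strip2 -0.22, Foxp1 0.041 and Ikzf1 0.161. With 1 array left out, values spanned 0 for Oprk1 (-0.087 to 0.061), Ptpn5 (-0.007 to 0.095), Strip2 (-0.076 to 0.228), Foxp1 (-0.227 to 0.01), Zfp503 (-0.114 to 0.073), Rasd2 (-0.163 to 0.056), Rasgrp2 (-0.107 to 0.031), Isl1 (-0.253 to 0.018), Car8 (-0.644 to 0.037), Hspa1a (-0.218 to 0.069) and 2 Hspa1b probe sets (-0.336 to 0.125 and -0.09 to 0.487).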

Other observations

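Among markers of brain cells that were not named by p, the tight junction gene Cldn5 of brain endothelium spanned 12.44 to 13.25 in wt and 12.82 to 13.64 in Hsp70. It differed by 0.28 (SE 0.17, limma adjusted p = 0.881), and by 0.71 (SE 0.17, limma adjusted p = 0.046) in aSYN/Hsp70 against aSYN. Cldn5 was chosen after its values were seen. The microglial receptor gene Cx3cr1 differed by 0.02 (SE 0.12), the astrocyte filament gene Gfap by 0.09 (SE 0.24), the vesicular glutamate transporter gene Slc17a7 by 0.03 (SE 0.34), Mbp by 0.03 (SE 0.07) and the choroid plexus gene Ttr by -0.02 (SE 0.08) between Hsp70 and wt. The haemoglobin gene Hba-a1 was at 6.71 in wt and 6.72 in Hsp70 by its probe set with 1 gene symbol, too dim to be tested. Probe sets with several symbols were not read as genes, so this need not be the level of haemoglobin RNA.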
